A study of Mus musculus with 6 samples.

Results

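The 10 genes described here are known targets of the hypoxia response that do not encode enzymes of glycolysis: Vegfa, Adm, Bnip3, Bnip3l, Ndrg1, Ddit4, Ankrd37, Mb, Kdm3a and P4ha1. Each is 1 of the 21960 genes of the deposited counts, found by its symbol. They were chosen for their known response to hypoxia-inducible factors (HIFs) and for the contrast of Bnip3, Mb and Ndrg1 with Adm in these same counts. They were thus selected on the difference in reads between p140Cap and mock cells, which is described below without a test for any of the 10.

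RNA came from TuBo cells, a cell line of a mammary tumor of a BALB/c mouse that carries MMTV-NeuT, an activated rat Her2 oncogene under a mammary tumor virus promoter. There were 3 libraries of mock cells, labelled as wild-type control lines, and 3 libraries of cells that overexpress p140Cap from the retroviral vector pBabe-puro. p140Cap cells were selected with puromycin and grown from single cells, and positive clones were pooled. The labels speak of cell lines in one place and of mice in another, and the samples were read as the TuBo cells of the paper. Whether mock cells were also cloned, and the density and oxygen level of the cultures at harvest, are not stated in the labels or the methods. An effect of p140Cap and an effect of cloning cannot be told apart in this design. The same holds for the vector and for puromycin selection, if mock cells went without them.

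HIFs are pairs of an oxygen-regulated alpha subunit and the constant subunit ARNT. With oxygen, prolyl hydroxylases of the EGLN family mark the alpha subunit, the VHL ubiquitin ligase binds it, and it is degraded. Without oxygen it persists, pairs with ARNT and binds a short core sequence near its target genes. Some targets turn the cell to glycolysis, and others act on vessels, mitochondria, growth signals, chromatin and collagen. In mammary tumors, the response is known from poorly perfused regions and from links to growth factor receptor signalling.

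The HIF core was looked for in the promoter windows of the 10 genes, to show which of them carry it next to their start. Windows came from RefSeq on GRCm38.p6 and run from 250 bases before an annotated start to 50 bases from the start on. Both forms of the core, ACGTG and GCGTG, were searched on both strands, and overlapping matches such as the palindrome CACGTG were counted on each strand. RefSeq windows were matched for 8 of the 10 genes, with 13 windows in all. Bnip3l and Ndrg1 are the 2 without one. At least 1 core was found in 7 of the 13 windows (53.8%), while 62.7% of 11678 windows of tested genes and 43.8% of all 32851 windows hold one. By gene, 7 of the 8 had a core in some window, against 68.9% of 9117 tested genes. A match is a description of the letters, not evidence of binding.

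Bnip3, Adm, Ankrd37 and Mb are shown because they span the range from 5 cores to none and from higher to lower in p140Cap cells. The window of Bnip3 (chr7:138909457-138909756, minus strand) holds 5 cores, the one of Ankrd37 (chr8:45999801-46000100, minus strand) holds 4, and the one of Adm (chr7:110627407-110627706, plus strand) holds 2. The second of 3 annotated starts of Mb (chr15:77022738-77023037, minus strand) holds none, as do its other windows. Each window is written 5′ to 3′ on the strand of its gene, and capitals mark the cores on either strand.
Bnip3: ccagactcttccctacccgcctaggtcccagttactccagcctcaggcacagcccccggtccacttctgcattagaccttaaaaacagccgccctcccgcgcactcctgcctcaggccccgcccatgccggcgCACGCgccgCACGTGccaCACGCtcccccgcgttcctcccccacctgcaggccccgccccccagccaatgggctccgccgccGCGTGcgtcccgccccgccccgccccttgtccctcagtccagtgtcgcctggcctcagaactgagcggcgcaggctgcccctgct
Ankrd37: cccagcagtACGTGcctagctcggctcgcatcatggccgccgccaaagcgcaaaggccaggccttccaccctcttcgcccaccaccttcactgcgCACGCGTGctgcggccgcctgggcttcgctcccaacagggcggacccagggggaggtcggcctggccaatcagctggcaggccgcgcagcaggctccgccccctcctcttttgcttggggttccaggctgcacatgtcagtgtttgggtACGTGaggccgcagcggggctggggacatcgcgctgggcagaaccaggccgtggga
Adm: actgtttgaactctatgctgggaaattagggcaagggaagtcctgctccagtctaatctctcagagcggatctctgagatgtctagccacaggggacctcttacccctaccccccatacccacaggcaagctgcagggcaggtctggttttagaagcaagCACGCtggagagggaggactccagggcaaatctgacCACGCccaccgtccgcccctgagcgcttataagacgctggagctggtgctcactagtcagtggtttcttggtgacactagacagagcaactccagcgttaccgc
Mb: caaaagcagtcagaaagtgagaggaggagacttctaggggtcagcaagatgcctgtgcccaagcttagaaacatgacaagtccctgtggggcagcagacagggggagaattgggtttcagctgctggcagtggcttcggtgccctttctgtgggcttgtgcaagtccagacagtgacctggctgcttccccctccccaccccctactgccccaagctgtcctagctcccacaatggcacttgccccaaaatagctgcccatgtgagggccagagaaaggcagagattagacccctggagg
In Bnip3, 4 of the 5 cores lie in a cluster that begins at positions from -117 to -99, and 2 of these are the strands of 1 CACGTG palindrome. Ddit4 and the second start of Vegfa hold 2 cores each, P4ha1 holds 3, and Kdm3a holds 1, at its first start.

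**Figure D1:**
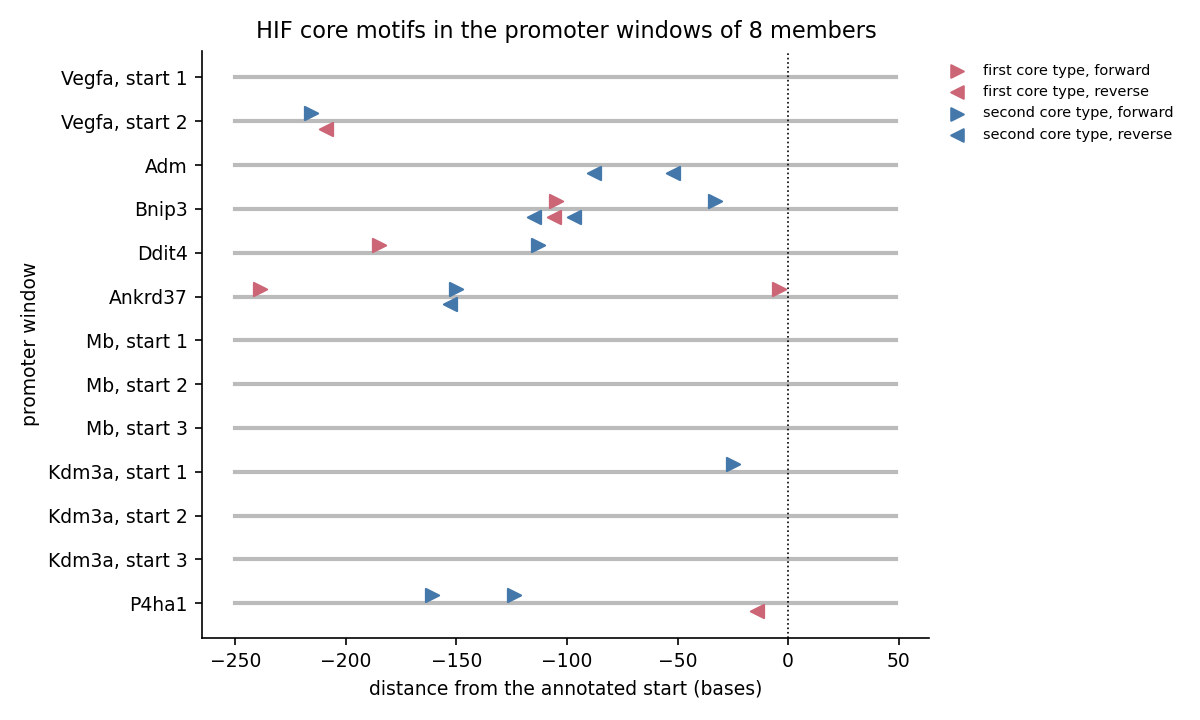
Position of HIF cores in 13 promoter windows of 8 genes, in bases from the annotated start (dotted line at 0). Red (first core type) marks ACGTG and blue (second core type) GCGTG, and triangles above the line and pointing right are on the strand of the gene, those below and pointing left on the other. Bnip3 has 5 cores, the 3 windows of Mb have none.

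Total reads per library lay between 13770385 and 75506562, and every mock library was deeper than every p140Cap library. Srcin1, which encodes p140Cap, was at 14.98 ± 1.96 CPM (reads scaled to depth and library composition) in mock and 2343 ± 153 CPM in its overexpressors (SD, n = 3). Epithelial markers fitted the label, with 6 of 6 genes read in every library and summed levels of 5462 to 5805 CPM in mock and 6344 to 6519 CPM in p140Cap cells. Of these 6, 3 rose, 1 fell and 2 did not pass the test. The gene that fell was Cldn7 (log2 fold change -0.41, SE 0.06, adjusted p = 5.78e-06, edgeR). Marker sums of leukocytes and erythroid cells were at most 0.272 CPM in every library. Endothelial markers summed to 0.270 to 0.553 CPM in mock and 0.613 to 0.923 CPM in p140Cap cells, and Pecam1, the 1 tested, rose (log2 fold change 1.25, SE 0.42, adjusted p = 0.0133, edgeR). Pecam1 entered the test through its p140Cap libraries, with 0.235, 0.427 and 0.150 CPM in mock. Fibroblast markers summed to 9.93 to 10.5 CPM in mock and 11.3 to 14.1 CPM in p140Cap cells, with Col1a2, Col3a1, Dcn and Lum at 0 reads, and Col1a1 rose (0.80, SE 0.16, adjusted p = 0.000244). Pdgfra, the largest part of the sum, was at 7.18 ± 0.688 CPM in mock and 7.67 ± 0.830 CPM in p140Cap cells. It did not pass the test (0.09, SE 0.11, adjusted p = 0.499). Over all genes tested, 8388 of 11800 (71.1%) passed an adjusted p of 0.05 (edgeR, quasi-likelihood fit, Benjamini-Hochberg adjustment), with 35.2% higher and 35.9% lower in p140Cap cells. Nothing in the labels says that the libraries of a group came from separate cultures, so p-values measure only the spread between these libraries. Counts of p140Cap replicates 1 and 3 differed least within a group, with a mean chi-square per gene of 1.75. Other pairs of a group ran from 4.57 to 10.7, and the mock pairs were deeper. Whether p140Cap replicates 1 and 3 shared a culture was not tested. In bulk RNA, a change in how many cells express a gene and a change in the level per cell cannot be told apart.

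Of the 10 hypoxia target genes, 9 were higher in every p140Cap library than in every mock library, and Adm was lower in every one. Over all 11800 genes, libraries of the 2 groups were apart in the higher direction for 36.3% and in the lower direction for 37.2%, or 73.4% in either. Since the contrast chose the genes, nothing is read from these counts. All 10 had enough reads to enter the fit, Adm through its mock libraries only. Fitted log2 fold changes of p140Cap against mock cells ran from -3.00 for Adm to 3.53 for Mb, with a median of 0.85, where the median over all genes was -0.00. In the order of all 11800 fitted values, Adm stood at percentile 0.619, Kdm3a at 70.1 and the 8 others at 89.1 or above. The choice of the genes bears on this median and these places too, so nothing is read from them.

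**Figure D2:**
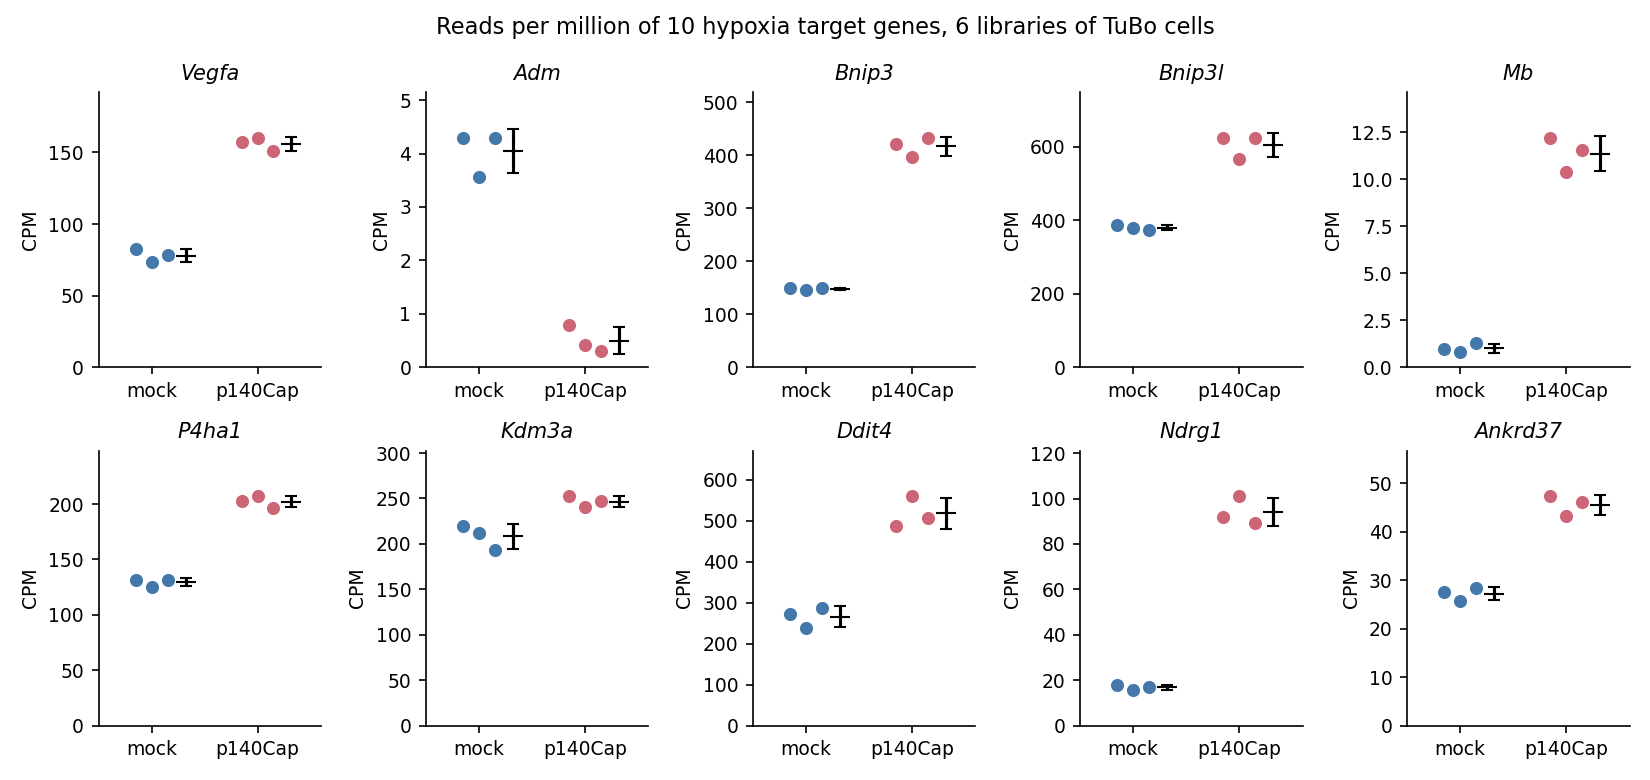
Normalized level (CPM, linear axis from 0) of each of the 10 genes in 3 mock (blue) and 3 p140Cap (red) libraries. Points are libraries, and the bar beside them is the mean ± SD. Adm is the one gene with its p140Cap libraries below its mock libraries, and the highest mock and lowest p140Cap library of Kdm3a are at 220.0 and 241 CPM.

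**Figure D3:**
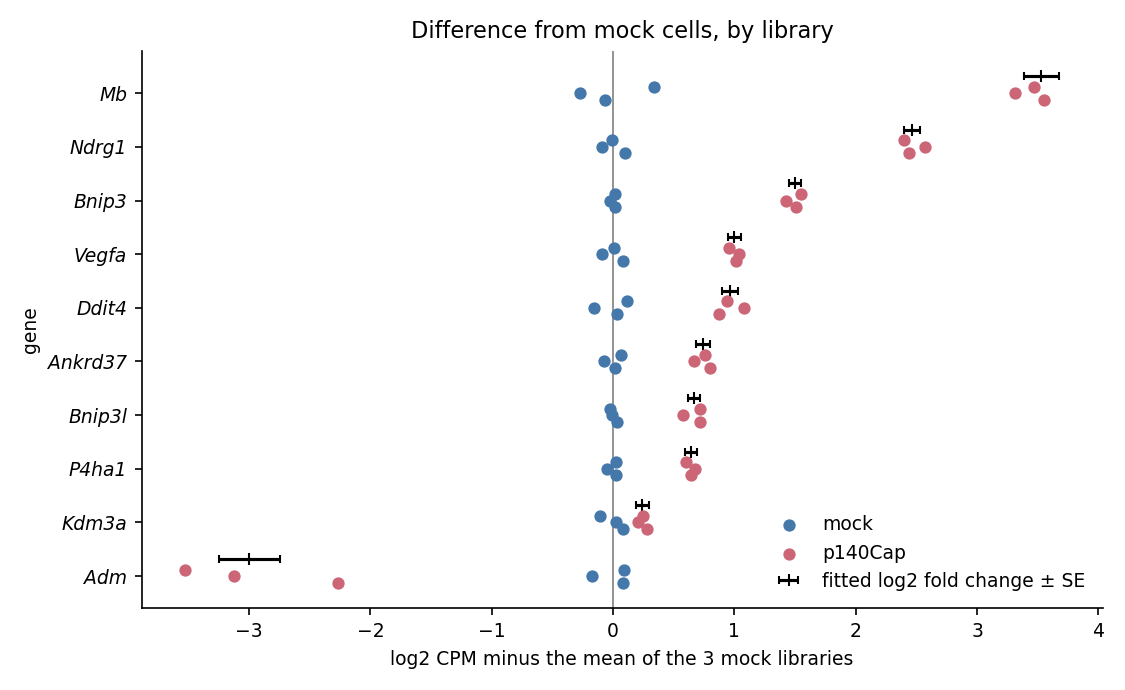
Difference of each library from the mean of the mock libraries, on the log2 CPM scale, for the same 10 genes in the order of their fitted change. Points are libraries (mock blue, p140Cap red), and the black mark is the fitted log2 fold change ± SE. The p140Cap libraries of Adm spread from -3.53 to -2.26, wider than those of any other gene shown.

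The 2 secreted products differed in opposite directions. Vegfa (ENSMUSG00000023951; chromosome 17 of GRCm38.p6, 46016993 to 46032377, minus strand) encodes vascular endothelial growth factor A, the main signal for the growth of blood vessels. It had 82.3, 73.3 and 78.2 CPM in the mock libraries and 157, 160.2 and 151 CPM in the p140Cap libraries. Every p140Cap library lay far above the mock range, at 2.00-fold on the means and a log2 fold change of 1.00 (SE 0.05). Adm (ENSMUSG00000030790; chromosome 7, 110627657 to 110629820, plus strand) encodes adrenomedullin, a vasodilator peptide that also acts on vessel growth. Few reads fell on it, at 328, 142 and 143 in the mock libraries against 12, 6 and 4 in the p140Cap libraries.

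For Adm, these reads correspond to 4.29, 3.57 and 4.29 CPM in mock and 0.791, 0.409 and 0.294 CPM in p140Cap cells. All mock libraries lay above all p140Cap libraries, with a log2 fold change of -3.00 (SE 0.25). On the reads pooled over each group, the level was 8.10 times higher in mock cells, and the exact 95% interval, for counting error alone, ran from 5.30 to 13.0. The size of the difference rests on 22 reads in p140Cap cells, 12 of them in p140Cap replicate 1. Without that library the log2 fold change was -3.51, and without p140Cap replicate 3 it was -2.75. Long non-coding genes are annotated on the other strand of both Vegfa and Adm, and the labels and methods do not say if strand was used when reads were counted.

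Genes that act with these ligands were read from 2 lists. Of 9 genes of the VEGF family and its receptors, 6 had enough reads, of which 2 rose and 3 fell in p140Cap cells (83.3% called beside 71.1% of all genes, median -0.22). Nrp1, a co-receptor of VEGFA and of semaphorins, fell from 459, 195 and 189 reads to 15, 9 and 6, or -3.01 in log2 (SE 0.22, adjusted p = 3e-09, edgeR). With at least 10 reads required in every library, Nrp1 was not tested and 2 genes of the list fell. Vegfc, a ligand of lymphatic vessel growth, fell by 2.03 in log2 (SE 0.18, adjusted p = 3.42e-08). Pgf, the placental growth factor named after its values were seen, rose by 0.20 (SE 0.05, adjusted p = 0.00155). Among the VEGF receptor kinases, Kdr and Flt4 had 0 reads in every library, while Flt1 was read at 63.4 ± 5.47 CPM in mock and 50.7 ± 3.10 CPM in p140Cap cells (SD, n = 3) and fell by 0.33 (SE 0.07, adjusted p = 0.000352). These 3 were also named after their values were seen.

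In the adrenomedullin system, 5 of 9 genes were tested, with 1 higher and 2 lower (60% called beside 71.1% of all genes, median -0.11). With at least 10 reads required in every library, 1 was lower. Adm2, the paralog of Adm, was also rare and fell from 60, 38 and 33 reads to 3, 2 and 4, or -2.07 in log2 (SE 0.40, adjusted p = 0.000183, edgeR). Adm2 entered the test through its mock libraries only. Ramp1, a partner of the receptor, fell by 0.86 (SE 0.19, adjusted p = 0.000606). Pam, the enzyme that amidates such peptides, rose by 0.44 (SE 0.05, adjusted p = 1.14e-06). The receptor gene Calcrl was below the limit for a test, with 21, 12 and 8 reads in mock and 0 in each p140Cap library. Pam and Calcrl were named after their values were seen.

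Bnip3 and Bnip3l encode related proteins of the outer mitochondrial membrane that bind LC3-type proteins and mark mitochondria for removal by autophagy. Bnip3 (ENSMUSG00000078566; chromosome 7, 138890836 to 138909506, minus strand) had 149, 145 and 149 CPM in mock and 421, 397 and 432 CPM in p140Cap cells. The mock libraries lay close together, and the gap to the p140Cap libraries was far wider than either spread. Its log2 fold change was 1.497 (SE 0.05), or 2.82-fold on the means. Bnip3l (ENSMUSG00000022051; chromosome 14, 66985238 to 67008877), also called NIX, had 387, 378 and 373 CPM in mock and 623, 566 and 624 CPM in p140Cap cells. Again the groups did not overlap, but the difference was smaller, at 1.59-fold and a log2 fold change of 0.67 (SE 0.05). A processed pseudogene and a long non-coding gene lie on the other strand of Bnip3.

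Of 17 other mitophagy genes, 16 were tested, 8 rose and 4 fell. Fbxl4, a ubiquitin ligase subunit that restrains BNIP3 and NIX protein, rose by 0.90 in log2 (SE 0.05, adjusted p = 1.05e-10, edgeR), from 60.7 ± 1.21 to 113 ± 4.67 CPM (SD, n = 3). Pptc7, a phosphatase that acts with FBXL4 and was named after its values were seen, fell by 0.66 (SE 0.07, adjusted p = 2.01e-07). Map1lc3a, one of the LC3 proteins, rose by 0.83 (SE 0.09, adjusted p = 4.37e-07). The 8 higher and 4 lower genes make 75% called, with a median of 0.14, beside 71.1% of all genes tested.

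Mb (ENSMUSG00000018893; chromosome 15, 77015487 to 77050668, minus strand) encodes myoglobin, the oxygen-binding protein of muscle, which some breast tumors also express. Its reads numbered 72, 32 and 42 in mock against 185, 152 and 157 in p140Cap cells, although the latter libraries were smaller. The level was 0.941, 0.805 and 1.26 CPM in mock and 12.2, 10.4 and 11.5 CPM in p140Cap cells. The lowest p140Cap library thus stood well above the highest mock library, and the log2 fold change of 3.53 (SE 0.14) was the highest of the 10. On pooled reads the level was 11.6 times higher in p140Cap cells (95% exact binomial interval 9.66 to 14.1, counting error only).

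Of 9 other globin genes none had enough reads for a test, and Ngb had the most, with 16, 8 and 6 reads in mock and 1, 5 and 2 in p140Cap cells. Of 14 genes of striated muscle, Actc1, Myl1, Myog and Myod1 had 0 reads in all libraries, and the sum of the list, 239.8 to 273 CPM in mock and 311 to 333 CPM in p140Cap cells, was nearly all Tnnt2. Tnnt2, the cardiac troponin T gene, had 256 ± 17.1 CPM in mock and 319.6 ± 11.1 CPM in p140Cap cells (SD, n = 3; log2 fold change 0.32, SE 0.05, adjusted p = 5.83e-05, edgeR). Of the 3 muscle markers tested, Tnnc1, the gene of troponin C, also rose, from 0.676 ± 0.111 to 1.19 ± 0.356 CPM (0.88, SE 0.28, adjusted p = 0.0108). Tnnt2 and Tnnc1 were named after their values were seen, and the part of muscle markers in the difference of Mb was not tested. Apol6, which overlaps Mb on the other strand and was named after its values were seen, rose from 23, 6 and 9 reads to 31, 25 and 29 (log2 fold change 2.93, SE 0.28, adjusted p = 9.69e-08, edgeR). Apol6 entered the test through its p140Cap libraries only. Without knowledge of the strand setting, reads of Mb and Apol6 in the shared stretch cannot be told apart.

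Ndrg1 and Ddit4 encode brakes on growth. Ndrg1 (ENSMUSG00000005125; chromosome 15, 66929318 to 66969641) encodes a cytoplasmic protein linked to differentiation and to suppression of metastasis. It had 18.1, 15.8 and 16.8 CPM in mock and 91.8, 101 and 89.3 CPM in p140Cap cells, so that even the lowest p140Cap library was far above the mock range. The log2 fold change was 2.47 (SE 0.06), or 5.56-fold. Long non-coding genes are annotated on the other strand of Ndrg1 as well. Among its relatives and the SGK kinases that phosphorylate it, 5 of 6 genes were tested, with 2 higher and 3 lower and a median of -0.40. All 5 were thus called, beside 71.1% of all genes. Ndrg2 rose from 23, 15 and 10 reads to 41, 32 and 42 (log2 fold change 3.03, SE 0.24, adjusted p = 1.02e-08, edgeR). It entered the test through its p140Cap libraries only, as its mock libraries had 0.301, 0.377 and 0.300 CPM. Ndrg4 fell by 0.63 (SE 0.10, adjusted p = 3.42e-05).

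Ddit4 (ENSMUSG00000020108; chromosome 10, 59949675 to 59951770, minus strand) encodes REDD1, which restrains the growth kinase complex mTORC1 through TSC1 and TSC2. It had 271, 238 and 288 CPM in mock and 486, 559 and 507 CPM in p140Cap cells. The mock libraries of Ddit4 differed more than those of most of the 10 genes, yet stayed below all p140Cap libraries. Its log2 fold change was 0.96 (SE 0.07). Of 14 genes of the mTORC1 brake and of the complex itself, 8 rose and 3 fell, or 78.6% called beside 71.1% of all genes, with a median of 0.17. Without p140Cap replicate 3, 1 fell. Txnip, which encodes thioredoxin-interacting protein, rose by 1.85 (SE 0.07, adjusted p = 1.06e-12, edgeR), and Deptor, an inhibitor that binds mTOR, rose by 1.19 (SE 0.05, adjusted p = 4.41e-12).

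Kdm3a and P4ha1 encode oxygen-dependent enzymes. Kdm3a (ENSMUSG00000053470; chromosome 6, 71588970 to 71632990, minus strand) encodes a histone demethylase that removes methyl groups from lysine 9 of histone H3. It had 220.0, 212 and 193 CPM in mock and 252, 241 and 247 CPM in p140Cap cells. The groups did not overlap, but the gap was narrow, and the log2 fold change of 0.24 (SE 0.05) was the nearest to 0 of the 10. Among 17 other JmjC demethylases, 15 were tested, 11 rose and 1 fell (80% called beside 71.1% of all genes, median 0.27). The lower count was 2 with DESeq2, with no filter, with at least 10 reads in every library, and without mock replicate 2 or p140Cap replicate 2. Kdm5b rose by 0.83 (SE 0.05, adjusted p = 2.22e-10, edgeR) and Kdm7a by 0.72 (SE 0.06, adjusted p = 3.98e-08).

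P4ha1 (ENSMUSG00000019916; chromosome 10, 59323197 to 59373304, plus strand) encodes a catalytic subunit of the prolyl hydroxylase that stabilizes collagen. It had 132, 125 and 131 CPM in mock and 203, 207 and 197 CPM in p140Cap cells, with tight libraries on both sides. The log2 fold change was 0.64 (SE 0.05). Of 18 genes of collagen hydroxylation and crosslinking, 13 were tested, 5 rose and 2 fell (53.8% called beside 71.1% of all genes, median 0.02). The 2 that fell were Crtap, at -0.36 (SE 0.07, adjusted p = 0.000177, edgeR), and P3h2, at -0.26 (SE 0.07, adjusted p = 0.00378). Of the collagen prolyl 3-hydroxylase genes, P3h3 rose by 1.39 (SE 0.12, adjusted p = 1.63e-08, edgeR) and P3h1 by 1.30 (SE 0.16, adjusted p = 1.81e-06), while P3h4, a relative of that family, did not pass the test (-0.01, SE 0.09, adjusted p = 0.930). Plod1, a lysyl hydroxylase gene, rose by 1.30 (SE 0.06, adjusted p = 1.74e-11). P4hb, the partner subunit of P4ha1, rose by 0.93 (SE 0.05, adjusted p = 4.97e-11). P4ha2, the other tested catalytic subunit, was at 3.50 ± 0.494 CPM in mock and 3.72 ± 0.509 CPM in p140Cap cells (SD, n = 3), a difference of 0.06 in log2 (SE 0.155, adjusted p = 0.738). Crtap, P3h1, P3h2, P3h4, P4hb and P4ha2 were named after their values were seen.

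Ankrd37 (ENSMUSG00000050914; chromosome 8, 45996908 to 46000414, minus strand) encodes a small ankyrin repeat protein whose role is poorly known. It had 27.5, 25.8 and 28.5 CPM in mock and 47.3, 43.3 and 46.1 CPM in p140Cap cells. The p140Cap libraries were above the mock range by more than the spread of either group, and the log2 fold change was 0.74 (SE 0.06). Ufsp2 and Lrp2bp overlap it on the other strand. Ufsp2, named after its values were seen, also rose, by 0.57 (SE 0.05, adjusted p = 5.58e-08, edgeR), and whether its reads entered those of Ankrd37 was not tested.

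Levels of different genes were compared per length, as RPKM, the reads per kilobase of exon scaled to depth, with exon lengths of GENCODE M39. In mock cells the order was Ddit4 at 97.9 ± 9.26 RPKM, Bnip3l at 69.0 ± 1.29, Bnip3 at 34.2 ± 0.558, P4ha1 at 20.0 ± 0.548, Kdm3a at 18.5 ± 1.22, Vegfa at 18.1 ± 1.06 and Ankrd37 at 14.5 ± 0.721 (SD, n = 3). Adm at 2.49 ± 0.255, Ndrg1 at 2.26 ± 0.151 and Mb at 0.438 ± 0.103 RPKM came last. The ranges of neighbouring genes overlapped from P4ha1 to Kdm3a, from Kdm3a to Vegfa and from Adm to Ndrg1, so these neighbours did not differ beyond their spread.

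In p140Cap cells the first 3 genes were again Ddit4 at 191 ± 13.9, Bnip3l at 109.7 ± 6.00 and Bnip3 at 96.5 ± 4.18 RPKM. Vegfa at 36.3 ± 1.12 RPKM stood next, ahead of P4ha1 at 31.2 ± 0.787, Ankrd37 at 24.3 ± 1.10 and Kdm3a at 21.9 ± 0.524 RPKM. Ndrg1 at 12.6 ± 0.819 and Mb at 4.97 ± 0.407 RPKM followed, and Adm was last at 0.306 ± 0.160 RPKM. No neighbours overlapped there. With the length of the longest transcript in place of all exons, the first 3 places were the same in both groups, while the places of P4ha1, Vegfa and Ankrd37 shifted in both, and in mock cells Kdm3a moved up and Ndrg1 stood above Adm. The ratio of Bnip3l to Bnip3 was thus nearer to 1 in p140Cap cells.

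**Figure D4:**
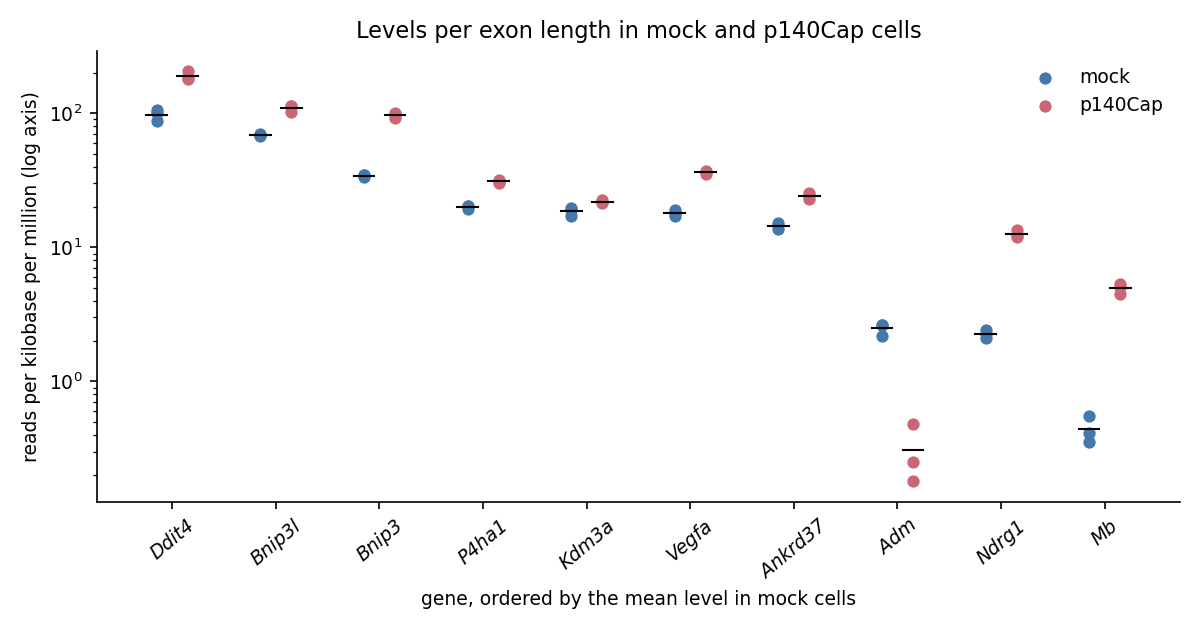
Level per exon length (RPKM, log axis) of the 10 genes in 3 mock (blue) and 3 p140Cap (red) libraries, ordered by the mean in mock cells, with a line at each mean. Adm lies in 8th place in mock cells and last in p140Cap cells, at 0.306 RPKM.

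Spread between libraries of one group was small for abundant genes. The coefficient of variation of the CPM ran from 1.63%, for Bnip3 in mock cells, to 9.46%, for Ddit4 in mock cells, in all but 3 cases. These were Adm at 10.3% in mock and 52.3% in p140Cap cells and Mb at 23.4% in mock cells, the genes with the fewest reads. One read was worth between 0.0131 and 0.0300 CPM in mock and between 0.0659 and 0.0734 CPM in p140Cap libraries.

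The HIF machinery itself was read next, from a list of 18 genes. Of the 17 tested, 6 rose and 5 fell in p140Cap cells, which is 64.7% called beside 71.1% of all genes, and the median log2 fold change was 0.05. Hif1a, which encodes the HIF-1 alpha subunit, rose from 279 ± 5.72 to 439 ± 5.27 CPM (SD, n = 3; log2 fold change 0.65, SE 0.05, adjusted p = 1.88e-09, edgeR). Its partner Arnt rose by 0.50 (SE 0.05, adjusted p = 7.06e-08). Epas1, which encodes the HIF-2 alpha subunit, was at 88.0 ± 3.08 CPM in mock and 90.9 ± 4.16 CPM in p140Cap cells and did not pass the test (log2 fold change 0.05, SE 0.05, adjusted p = 0.418).

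Genes that turn HIF off differed in both directions. Egln3, a prolyl hydroxylase gene that is itself a HIF target, rose from 590.1 ± 14.3 to 1092 ± 29.8 CPM (SD, n = 3; log2 fold change 0.89, SE 0.05, adjusted p = 7.02e-11, edgeR). Egln1 rose by 0.62 (SE 0.05, adjusted p = 8.48e-09) and Vhl by 0.27 (SE 0.05, adjusted p = 0.000115). Hif1an, which encodes the asparagine hydroxylase of HIF, fell by 0.49 (SE 0.05, adjusted p = 2.15e-07), and so did 3 of 4 further parts of the VHL ligase, Cul2 at -0.41, Tceb1 (now Eloc) at -0.40 and Rbx1 at -0.14 (adjusted p = 4.15e-06, 1.75e-05 and 0.0298). The call of Rbx1 was lost in 5 of the alternatives, with adjusted p from 0.0546 with a replicate block to 0.110 without p140Cap replicate 2, and at 0.104 with libraries thinned to the smallest total. The fourth part, Tceb2 (now Elob), did not pass the test (-0.11, SE 0.06, adjusted p = 0.108). The prolyl hydroxylase gene Egln2 did not pass the test (0.06, SE 0.07, adjusted p = 0.471), and these 6 were named after their values were seen. Cited4, a partner of the coactivators CBP and p300, had the largest fitted change among the 17 tested genes of the list and fell from 301, 148 and 155 reads to 12, 9 and 12 (log2 fold change -2.42, SE 0.21, adjusted p = 2.78e-08).

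Further hypoxia targets were read from 2 lists. Of 45 further non-glycolytic targets, 38 were tested, 30 rose, 2 fell and 6 did not pass the test, with a median log2 fold change of 0.49. That is 84.2% called, beside 71.1% of all genes, of which 35.2% were higher and 35.9% lower. Car9, a carbonic anhydrase that acidifies the outside of the cell, rose by 4.11 (SE 0.07, adjusted p = 3.32e-17, edgeR), from 9.10 ± 0.660 to 158 ± 8.83 CPM (SD, n = 3). Car12, of the same family, rose by 1.47 (SE 0.05, adjusted p = 2.82e-13) and Ero1l, an oxidase of the endoplasmic reticulum now called Ero1a, by 1.42 (SE 0.05, adjusted p = 1.37e-12). The 2 that fell were Edn1, which encodes the vasoconstrictor endothelin-1, at -1.18 (SE 0.32, adjusted p = 0.00369) and the chemokine receptor gene Cxcr4 at -0.48 (SE 0.07, adjusted p = 8e-06), both named after their values were seen. With at least 10 reads required in every library, Edn1 was not tested and 1 gene fell.

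Of 22 glycolytic targets, 20 were tested, 18 rose and 2 fell, with a median of 0.51, so that 100% were called beside the same 71.1% of all genes. Pfkfb3, whose product activates the third step of glycolysis, rose by 1.85 (SE 0.06, adjusted p = 8.3e-13, edgeR), Eno2, an enolase gene, by 1.33 (SE 0.08, adjusted p = 2.93e-10) and Pfkm, a phosphofructokinase gene, by 0.82 (SE 0.05, adjusted p = 1.01e-09). Pfkfb4 at -0.79 (SE 0.13, adjusted p = 5.2e-05) and Pgam1 at -0.14 (SE 0.05, adjusted p = 0.0133) fell, both named after their values were seen. The call of Pgam1 was lost without p140Cap replicate 1 (adjusted p = 0.0717) or p140Cap replicate 3 (adjusted p = 0.0512), so that 1 glycolytic gene fell in each case. Calls of genes that rose were lost too. Pkm, whose groups overlapped, lost its call without mock replicate 1 or 2 or p140Cap replicate 2 or 3 (adjusted p from 0.0537 to 0.156, edgeR). Ldha lost its call without mock replicate 2 (adjusted p = 0.0566). These lists were written with earlier results of the data known and were not tested against other genes. The further non-glycolytic targets share Egln1, Egln3 and Cited2 with the HIF machinery, and Pgf, Kdm2b, Kdm4b, Kdm4c, Plod1, Plod2, P4ha2 and Loxl2 with the lists of partner genes.

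**Figure D5:**
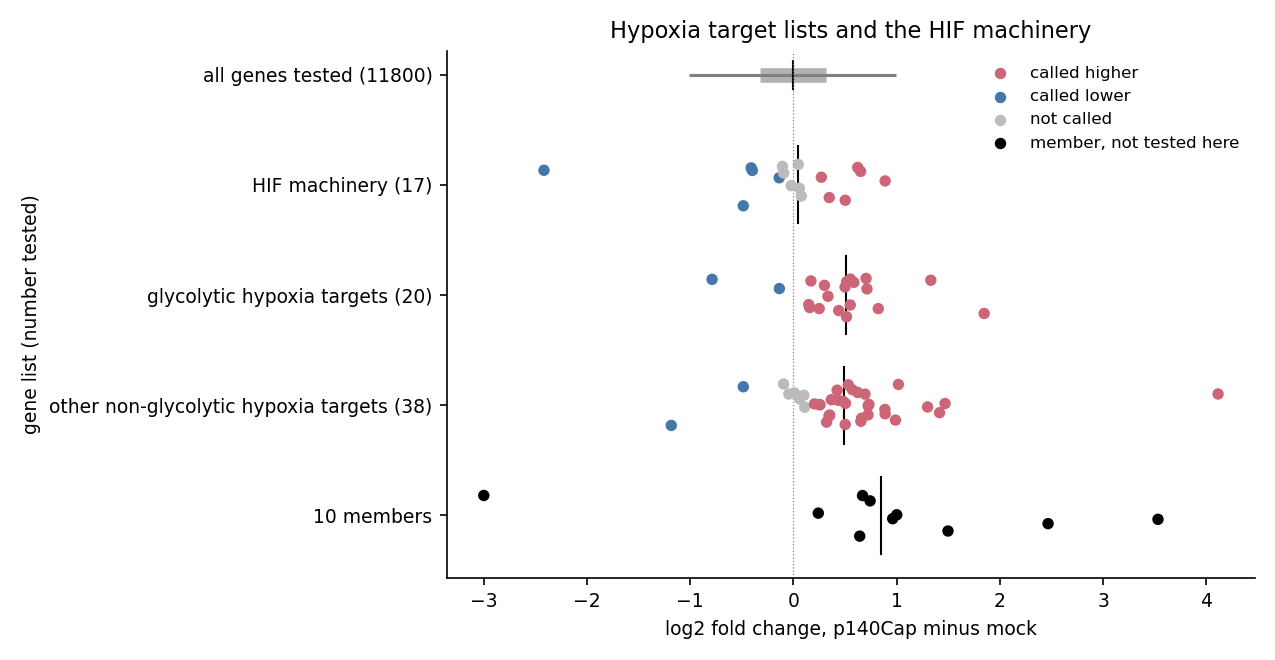
Log2 fold change (p140Cap minus mock) of the 10 genes and of the tested genes of 3 lists, with a black line at each median. The 10 genes are black and were not tested, red genes rose, blue genes fell and grey genes did not pass edgeR's test at an adjusted p under 0.05, and the bar for all 11800 genes spans the 25th to 75th percentile (-0.32 to 0.31) with thin lines to the 5th and 95th (-1.01 to 0.99). Medians of the glycolytic and the further non-glycolytic targets, 0.51 and 0.49, lie to the right of the median of all genes.

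Genes with the most similar profile were found by the root mean square difference of log2 CPM, centred on the mock mean, over the 6 libraries. For Bnip3 they were Stbd1 (0.03 log2 units), Gm2a (0.03) and Map3k6 (0.04), with log2 fold changes of 1.48, 1.53 and 1.52. Vsir (0.06), Selenbp1 (0.10) and Ptges (0.12) were nearest to Ndrg1. For Mb, Lmod1 (0.30), Pygo1 (0.34) and Sema6d (0.34) were nearest. Nrp1 (0.07), Papss2 (0.18) and Sema7a (0.19) came closest to Adm, the last 2 with 1 read each over the p140Cap libraries. The prior count of 2 reads in the log2 CPM draws rare genes together, so that Papss2 and Sema7a, at fitted log2 fold changes of -4.60 and -4.59, still came near Adm.

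Genes around the 10 were read as a description of their surroundings. For the 14 tested genes within 1 Mb of Adm the median log2 fold change was 0.04, and values ran from -0.85 to 3.63. Around Bnip3, 6 genes had a median of 0.03, and around Mb, 47 genes had a median of 0.03, from -4.70 to 2.93. Only 3 tested genes lay within 1 Mb of Ndrg1, with a median of 0.31 and values from -0.46 to 2.93. Ddit4 and P4ha1 lie in the same stretch of chromosome 10, and with 14 tested neighbours each the medians were 0.31 and 0.15.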

How the data were processed

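RNA of 3 mock and 3 p140Cap TuBo libraries was sequenced by the authors after poly(A) selection with a TruSeq stranded kit on a NextSeq. The deposited counts are whole numbers of reads per gene, not normalized. The submitters' processing notes name STAR 2.5, RSEM 0.1.1 and mm10 without their roles, and the paper names GRCm39. If RSEM made the counts, they are rounded estimates. Annotation release and strand setting were not given in the sources used here. All 6 columns matched a library label, with 0 columns unused.

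From these counts, edgeR 4.0.16 in R 4.3.3 was run with TMM factors, its default filter on low counts (11800 of 21960 genes kept), the quasi-likelihood test over the 6 libraries and Benjamini-Hochberg adjustment at 0.05. The filter asks for enough reads in as many libraries as a group holds, so a rare gene can enter through a single group. Ndrg2, Pecam1, Apol6, Adm2 and Edn1, among others, did so through the group where they were higher. Their entry was thus not independent of the direction. Standard errors were taken as |log2 fold change| over the root of F. CPM use TMM-adjusted totals, and log2 CPM a prior count of 2. Totals ran from 13770385 to 75506562 reads, and intervals cover counting error only. Scripts were tested on simulated data in which few genes differed, as many up as down. Scaling was thus not tested where most genes differ, as in these data. Positions and promoters came from RefSeq on GRCm38.p6, and lengths and overlaps from GENCODE M39 by gene identifier.

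The 10 genes and all lists were chosen with earlier results of these data known. Named genes are these 10, Srcin1, Hif1a, Epas1, Arnt, Egln1, Egln3 and Vhl, the called genes of largest change with groups apart (up to 3 per pathway list and 2 per partner list), and the 3 genes nearest in profile to Bnip3, Mb, Ndrg1 and Adm. All other names were chosen after their values were seen. Alternatives were DESeq2 1.42.0, limma-voom 3.58.1, RLE factors, no filter, at least 10 reads in every library, thinning to the smallest total, a replicate block and leaving out each library.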

Additional observations from a re-analysis of the deposited data

How the results depend on the processing

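With at least 10 reads required in every library, Adm, Nrp1, Adm2, Cited4 and Edn1 left the fit, so that 0 of the 10 genes were lower with the groups apart and 1 further non-glycolytic target fell, since fewer genes were tested. Leaving out 1 library at a time, between 1 and 2 glycolytic targets fell, with 1 in the absence of p140Cap replicate 1 or p140Cap replicate 3. Lower counts of 3 partner lists also moved: JmjC demethylases from 1 to 2 (DESeq2, no filter, at least 10 reads, without mock replicate 2 or p140Cap replicate 2), the adrenomedullin system from 2 to 1 (at least 10 reads), and the mTORC1 brake from 3 to 1 (without p140Cap replicate 3). The remaining counts of calls were within 1.5 times of those reported. The 10 genes kept their sign in every alternative that kept them. Adm ranged from -3.51 to -2.75, and Mb reached 3.83 when libraries were thinned. Same-numbered libraries did not deviate together (correlations of -0.03, -0.11 and -0.06), so the numbers were not taken to pair them. With the replicate block, 3980 genes were called higher and 4054 lower. In the block fit, 6 genes of the HIF machinery rose and 4 fell, 18 glycolytic targets rose and 2 fell, 29 further targets rose and 2 fell, and 36 partner genes rose and 15 fell. Calls lost under the block included Rbx1, Becn1, Ddit4l and Akt1s1, and the cause was not tested. Every mock library was deeper than every p140Cap library, and Adm and Mb had the fewest reads of the 10.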
